A study of Mus musculus with 16 samples.

Results

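The genes described here are those of the epidermal growth factor (EGF) receptor family and of its ligands. They were chosen by name: the receptors Egfr, Erbb2 and Erbb3, and the ligands Areg (amphiregulin), Ereg (epiregulin), Hbegf (heparin-binding EGF-like growth factor), Tgfa (transforming growth factor alpha), Btc (betacellulin) and Epgn (epigen). All 9 were present among the 32989 gene identifiers of the table, and all 9 passed the filter on low counts that left 19049 genes for testing. RNA was measured by 3' RNA-seq in hair follicle stem cell (HFSC) organoids, a culture in which epidermal mouse cells grown in 3 dimensions for 2 weeks settle into a mixture of integrin α6+/CD34+ HFSCs and α6+/CD34- progenitors. The sorted fractions came from control cultures (untreated) or from cultures kept for 72 h with N1-AcSpd, short for N1-acetylspermidine, which is a polyamine carrying an acetyl group. Each of the 4 groups (untreated CD34-, untreated CD34+, N1-AcSpd CD34- and N1-AcSpd CD34+) held 4 libraries, and each of the same 4 mice gave 1 library to every group. The comparisons ask how the fractions differ with and without N1-AcSpd, and how N1-AcSpd changes each fraction.

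All groups shared the culture medium, which per the study's methods contained added EGF, so that the receptor had an outside ligand in every library. All mice were of the C57BL/6J strain per the labels. The sample titles mark the untreated libraries as WT (wild type), and name N1-AcSpd in its place for the treated ones. The cells had been isolated from mice of both sexes in the resting phase of the hair cycle, at ages the study's methods give as ranges of postnatal days. The labels give neither the age nor the sex of each mouse and no dose of N1-AcSpd.

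EGF family ligands are made as membrane-anchored precursors, and a protease, mostly ADAM17, cuts them free. The ligands measured here bind EGFR, and Hbegf, Btc and Ereg can bind ERBB4 as well. A bound receptor pairs with another family member, often ERBB2, which has no ligand of its own, or ERBB3, which binds neuregulins and whose kinase is weak, and passes the signal to the RAS-ERK and PI3K pathways. In skin this family is known for its part in keratinocyte growth, in wound repair and in hair follicle shape and cycling.

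The libraries held 15480075 to 29074855 unique molecular identifiers (UMIs), each standing for 1 captured RNA molecule, and 22142 to 24247 genes with at least 1 UMI. Levels are given as CPM, the UMIs of a gene per 1000000 UMIs of its library after scaling by the trimmed mean of M values (TMM). The sort was visible in its own marker: Cd34 lay at 2.87 to 3.65 CPM over all CD34- libraries and at 43.4 to 64 CPM over all CD34+ libraries. All 7 listed follicle stem cell markers were higher in CD34+ cells in both conditions. Basal keratinocyte markers were abundant in every library, at a sum of 6054 to 7052 CPM over 6 genes. Fibroblast markers summed to at most 1.52 CPM and immune markers to at most 4.99 CPM. The melanocyte list reached 28 to 36.1 CPM, nearly all from Mitf and Pmel, with Tyr at most at 0.36 and Tyrp1 at most at 0.071 CPM. The endothelial list reached 1686 to 2054 CPM nearly all from Pecam1, while Kdr was at most at 0.36 and Tek at most at 0.274 CPM. For the lists with genes not analysed here, 6 of 8 melanocyte, 5 of 7 immune and 3 of 5 endothelial markers were measured.

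Of the family's 6 ligands, 4 were lower in CD34+ HFSCs than in CD34- progenitors, and its receptors differed little. The ligands Ereg and Btc did not pass the test. Epgn was 2.7-fold lower, Areg 2.35-fold lower, Hbegf 2.12-fold lower and Tgfa 1.45-fold lower in untreated CD34+ cells. Among the receptors, Erbb3 was 1.22-fold lower, and neither Egfr nor Erbb2 passed the test. N1-AcSpd changed no member at an adjusted p under 0.05 in either fraction, except that a fit paired by mouse called Areg higher in CD34- cells (log2 0.45, adjusted p = 0.0303). Genes were tested with edgeR's quasi-likelihood test on the counts, adjusted by Benjamini-Hochberg over all 19049 genes.

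In untreated cells, 5 of 9 members were called lower in CD34+ cells and 0 higher, where 32.1% of all tested genes were called, 16.1% higher and 16.1% lower. With N1-AcSpd, 5 of 9 were called lower and 1 higher, where 33.3% of all tested genes were called, 16.5% higher and 16.8% lower. The median log2 fold change of the 6 ligands was -1.16 in untreated and -1.31 in N1-AcSpd cells, beside 0.022 and -0.0068 over all tested genes. For the 3 receptors it was -0.10 and -0.18. With library totals instead of TMM as the scaling, the all-gene median moved to 0.14 and 0.11, and 73.4% and 71.6% of the calls were higher, against 50% and 49.6% with TMM. Areg, Hbegf, Tgfa and Epgn remained lower and called in both conditions under that scaling.

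**Figure D1:**
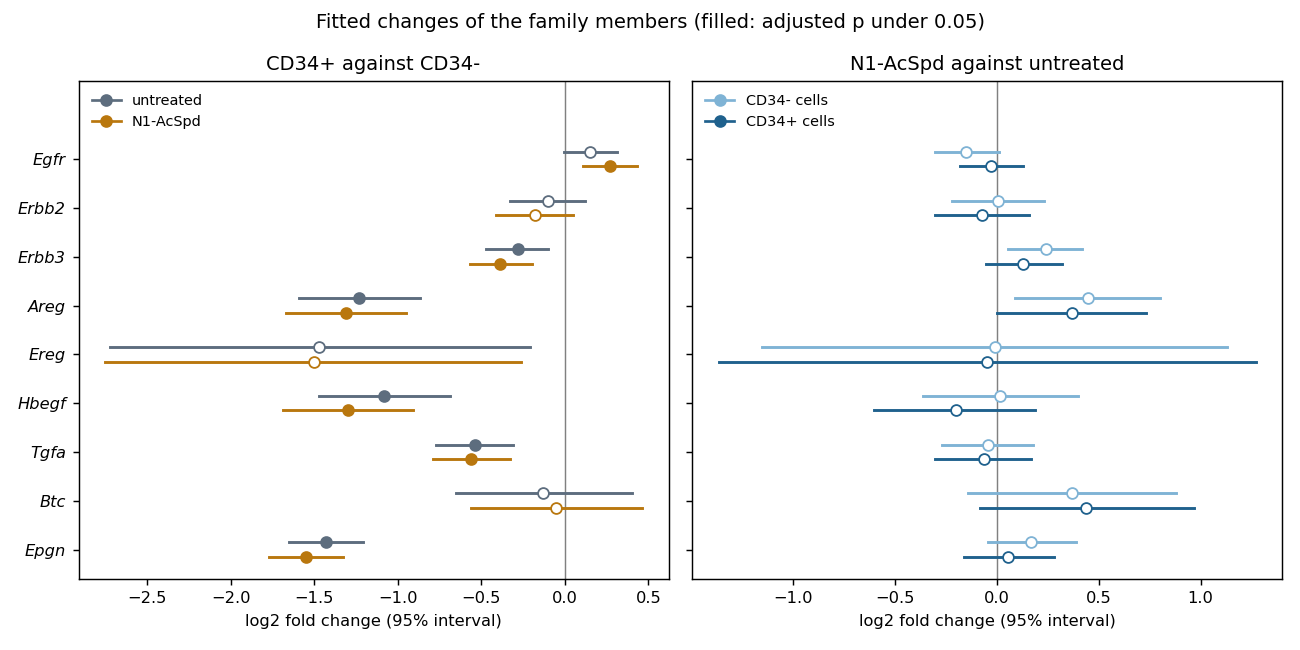
Fitted log2 fold changes of the 9 members with 95% intervals, for CD34+ against CD34- cells (left, by condition) and for N1-AcSpd against untreated cells (right, by cell type). Filled points had an adjusted p under 0.05: Areg, Hbegf, Tgfa, Epgn and Erbb3 lie left of 0 in both conditions on the left side, Egfr lies right of 0 with N1-AcSpd, and no point is filled on the right side.

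Epigen is the ligand with the most tags in these cells, and it was the member with the smallest p. In untreated cells Epgn stood at 25.7, 25.8, 29.3 and 31.3 CPM in the CD34- libraries of mice 1 to 4, and at 9.78, 9.54, 11.7 and 10.5 CPM in their CD34+ libraries. With N1-AcSpd it stood at 32.9, 29.9, 32 and 31.6 CPM in CD34- cells and at 10.5, 9.9, 13.2 and 9.57 CPM in CD34+ cells. Every CD34+ library lay below every CD34- library in both conditions, and within each mouse the CD34+ value was 0.30 to 0.41 of the CD34- value. On the log2 scale CD34+ cells differed by -1.43 (SE 0.102, adjusted p = 5.84e-07) in untreated and -1.55 (SE 0.102, adjusted p = 2.56e-07) in N1-AcSpd cells.

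Amphiregulin, a ligand of EGFR that keratinocytes make for their own growth, followed. Areg stood at 14.4, 11.3, 15.3 and 13.8 CPM in untreated CD34- cells and at 7.34, 4.66, 6.83 and 4.52 CPM in untreated CD34+ cells of the same mice. With N1-AcSpd the values were 21.3, 16.5, 19.2 and 17.6 CPM in CD34- cells and 8.46, 6.43, 8.77 and 6.4 CPM in CD34+ cells. The fractions did not overlap in either condition. On the log2 scale this was a difference of -1.23 (SE 0.17, adjusted p = 9.31e-05) in untreated and -1.31 (SE 0.168, adjusted p = 4.23e-05) in N1-AcSpd cells.

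Areg and Epgn lie in 1 gene cluster and were both lower in CD34+ cells, so the stretch around each start site is shown, 250 bases before it to 50 after, from RefSeq on GRCm38.p6. The Areg window is chr5:91139349-91139648 and the Epgn window chr5:91027267-91027566, both on the plus strand. Capitals mark matches to the cAMP response element TGACGTCA or to the TATA box TATAAA.
Areg: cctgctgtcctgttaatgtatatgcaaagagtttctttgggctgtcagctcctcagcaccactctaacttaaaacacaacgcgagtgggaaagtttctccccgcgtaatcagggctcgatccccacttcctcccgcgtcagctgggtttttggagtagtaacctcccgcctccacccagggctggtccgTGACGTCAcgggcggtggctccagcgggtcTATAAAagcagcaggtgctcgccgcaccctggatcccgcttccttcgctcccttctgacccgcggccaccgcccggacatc
Epgn: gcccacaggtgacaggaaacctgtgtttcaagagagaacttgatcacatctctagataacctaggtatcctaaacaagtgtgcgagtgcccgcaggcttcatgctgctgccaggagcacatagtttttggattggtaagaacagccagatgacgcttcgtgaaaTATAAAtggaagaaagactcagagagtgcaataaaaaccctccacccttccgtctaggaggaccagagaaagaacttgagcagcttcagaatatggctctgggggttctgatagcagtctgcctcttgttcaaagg
In Areg the TGACGTCA match begins 61 bases and the TATAAA match 31 bases before the start. In Epgn a TATAAA match begins 86 bases before the RefSeq start (91027517), which lies 53 bases downstream of the GENCODE start (91027464) used for the gene positions given here. Counted from the GENCODE start, the match begins 33 bases before it. For Areg both annotations give the same start.

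Both strands were searched, and the AP-1 motif TGANTCA was searched as well. These motifs do not overlap one another, since TGACGTCA is not a case of TGANTCA. A sequence was at hand for 6 of 9 members: Egfr, Erbb2, Areg, Tgfa, Btc and Epgn. The TGACGTCA letters were found in Areg of these, and in 1.79% of all 32851 promoters of the same length. TATAAA was found in Areg and Epgn, and in 13.6% of all promoters. TGANTCA was found in 0 of the 6 and in 7.81% of all promoters. A match describes the letters of the window and nothing more.

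Heparin-binding EGF-like growth factor, which is known to be induced at wound edges, showed the same direction. Hbegf stood at 12, 10.6, 14.2 and 11.4 CPM in untreated CD34- cells and at 6.2, 5.7, 6.94 and 3.95 CPM in untreated CD34+ cells. With N1-AcSpd it stood at 12.7, 11.2, 14.6 and 10.2 CPM in CD34- cells and at 4.57, 4.44, 6.56 and 4.23 CPM in CD34+ cells. The fractions were apart in both conditions, and the library of mouse 3 was the highest in each of the 4 groups. For CD34+ against CD34- cells the log2 fold change was -1.08 (SE 0.181, adjusted p = 0.000435) in untreated and -1.30 (SE 0.182, adjusted p = 8.64e-05) in N1-AcSpd cells.

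Transforming growth factor alpha, whose loss in mice gives wavy hair, differed less. Tgfa stood at 4.86, 4.6, 5.19 and 5.55 CPM in untreated CD34- cells and at 3.7, 3.07, 3.79 and 3.34 CPM in untreated CD34+ cells. With N1-AcSpd it stood at 5.57, 4.26, 5.36 and 4.43 CPM in CD34- cells and at 3.49, 2.96, 3.68 and 3.17 CPM in CD34+ cells. The CD34+ libraries were again below all CD34- libraries, at 0.60 to 0.76 of the CD34- value within each mouse. Fitted values were -0.54 (SE 0.107, adjusted p = 0.00161) in untreated and -0.56 (SE 0.107, adjusted p = 0.00104) in N1-AcSpd cells on the log2 scale.

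Ereg and Btc were near the lower limit of the counts. Epiregulin had 3 to 20 UMIs per library in CD34- cells of both conditions and 1 to 6 UMIs in CD34+ cells. In untreated cells Ereg lay at 0.129, 0.383, 0.866 and 0.316 CPM in CD34- cells and at 0.114, 0.329, 0.0542 and 0.103 CPM in CD34+ cells. It was lower in the CD34+ library of every mouse in both conditions, but the fitted -1.47 (SE 0.582, adjusted p = 0.0708) and -1.50 (SE 0.58, adjusted p = 0.062) on the log2 scale did not pass the test. Betacellulin had 5 to 14 UMIs per library. Btc had a log2 fold change of -0.13 (95% interval -0.65 to 0.40) in untreated and of -0.054 (95% interval -0.56 to 0.46) in N1-AcSpd cells, so that a difference of the size seen for Areg lay outside both intervals. At such counts these intervals can be too narrow, since they may not cover all of the counting error.

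**Figure D2:**
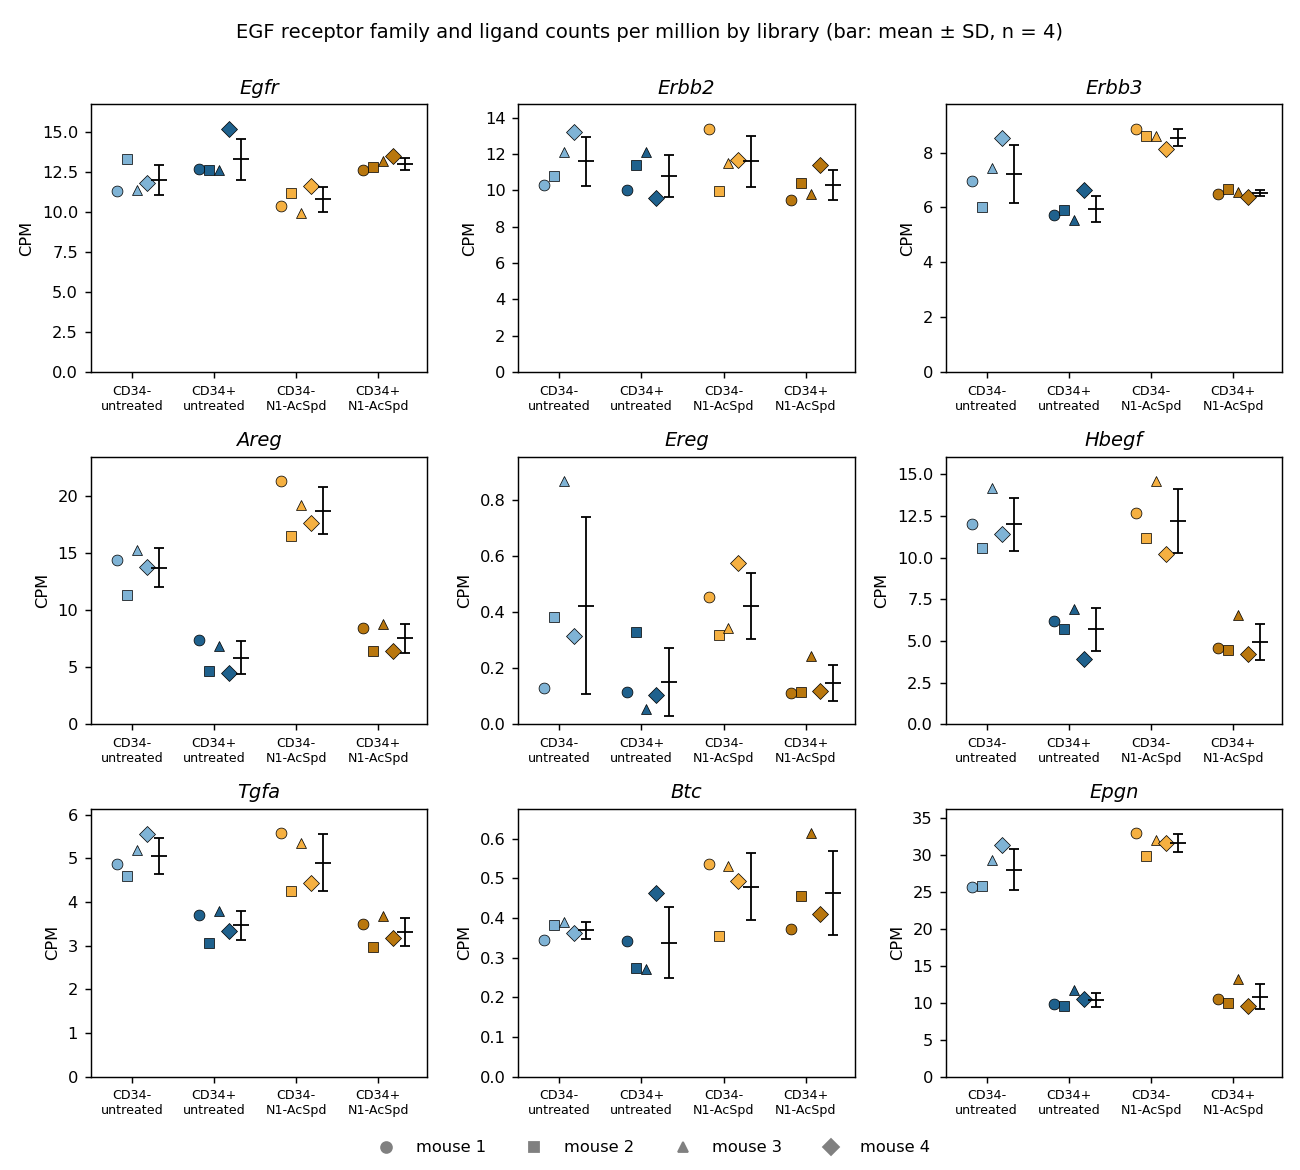
Level of each member in every library, in CPM on a linear axis from 0, with 1 symbol for each mouse, and the mean with its SD (n = 4) beside the points. Epgn, Areg, Hbegf and Tgfa form separate bands for CD34- and CD34+ cells in both conditions, the 3 receptors lie in bands that overlap in untreated cells, and Ereg and Btc lie under 1 CPM.

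Of the ligand genes, 4 sit side by side on chromosome 5. In GRCm38 coordinates Epgn lies at 91027464 to 91035215, Ereg at 91074622 to 91093646, Areg at 91139599 to 91148432 (all on the plus strand) and Btc at 91357261 to 91402994 (minus strand). The span of 375.5 kb holds no protein-coding gene other than these 4. Epgn and Areg, at its near end, were called lower in CD34+ cells, Ereg between them had fitted values of the same size with wide intervals, and Btc at the far end had intervals around 0. The remaining ligands lie elsewhere, Hbegf on chromosome 18 (36504927 to 36515805) and Tgfa on chromosome 6 (86195223 to 86275719).

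**Figure D3:**
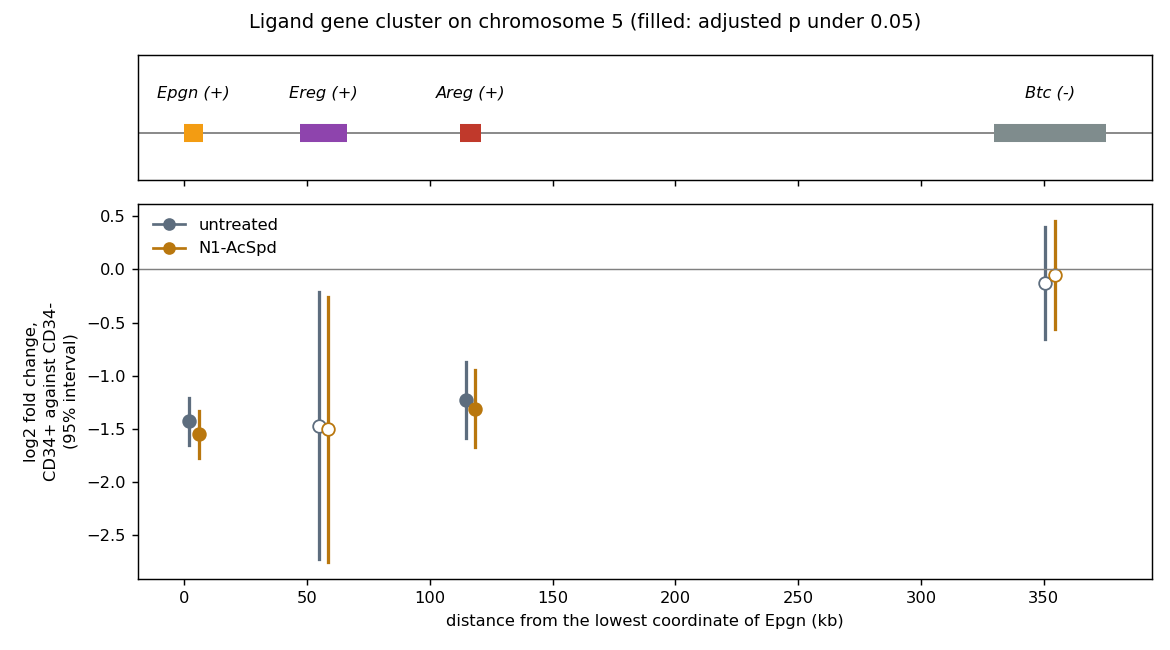
Map of the ligand cluster on chromosome 5, drawn to scale as distance from Epgn in kb (top), with the log2 fold change of CD34+ against CD34- cells and its 95% interval under each gene (bottom). Epgn and Areg are filled (adjusted p under 0.05) in both conditions at -1.55 to -1.23, Ereg has open points at -1.47 and -1.50, and Btc has open points at -0.13 and -0.054.

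Each RNA molecule gives 1 tag near its 3' end, so that CPM carry no factor for gene length, and the ligands can be summed on this tag scale. The 6 ligands summed to 59.6 ± 5.45 CPM (SD, n = 4) in untreated CD34- cells and to 25.9 ± 3.2 CPM in untreated CD34+ cells. With N1-AcSpd the sums were 68.3 ± 5.31 CPM and 27.2 ± 4.26 CPM. The 3 receptors summed to 30.8 ± 2.1, 30 ± 1.24, 31 ± 1.35 and 29.8 ± 1.12 CPM in untreated CD34-, untreated CD34+, N1-AcSpd CD34- and N1-AcSpd CD34+ cells. There were thus 1.94 ± 0.151 and 2.2 ± 0.155 ligand tags for each receptor tag in CD34- cells without and with N1-AcSpd, and 0.865 ± 0.126 and 0.915 ± 0.161 in CD34+ cells, with no overlap between the fractions. The receptor sum includes Erbb2 and Erbb3, whose proteins do not bind the 6 ligands, and the ligand sum leaves out the neuregulins. The Erbb2 tags are also uncertain through an overlapping gene, as described below.

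The makeup of the ligand sum differed between the fractions as well, given here as a description. Epgn made up 47.1% ± 2.65 of the ligand tags in untreated CD34- cells and 40.4% ± 4.21 in untreated CD34+ cells, with overlapping ranges. The Tgfa share was 8.48% ± 0.384 in the former and 13.5% ± 0.799 in the latter, with all CD34+ libraries above all CD34- libraries. The Areg share was 22.9% ± 1.68 and 22.3% ± 3.31 in untreated cells and 27.3% ± 1.17 and 27.6% ± 2.1 with N1-AcSpd.

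**Figure D4:**
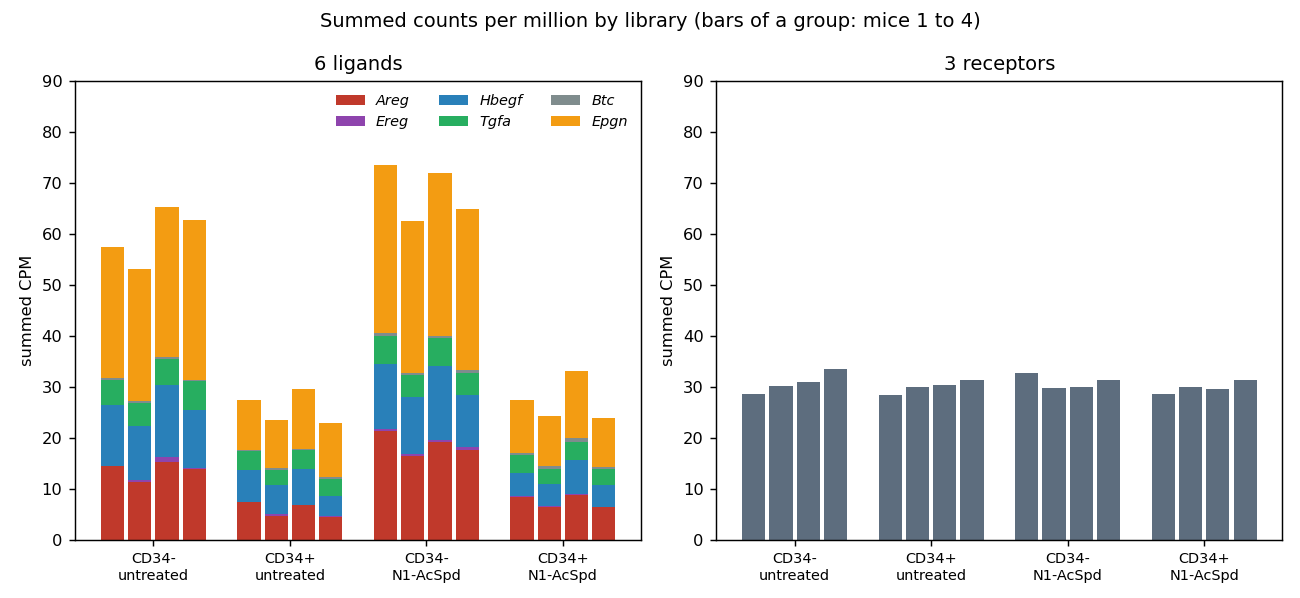
Summed CPM of the 6 ligands (left, stacked by gene) and of the 3 receptors (right) in each of the 16 libraries, on bars that start at 0. The ligand bars reach 53.1 to 73.4 CPM in CD34- libraries and 22.9 to 33.1 CPM in CD34+ libraries, while the receptor bars reach 28.4 to 33.5 CPM in all.

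The 2 fractions also differed in how many transcripts of differentiated keratinocytes they held. All 9 listed markers of such cells, among them Krt1, Krt10 and Ivl, were called lower in CD34+ cells in both conditions. Their sum ranged from 1042 to 1391 CPM in untreated CD34- libraries and from 300 to 327 CPM in untreated CD34+ libraries. With N1-AcSpd it ranged from 1257 to 1593 and from 316 to 408 CPM. Most of the sum came from Krtdap and Sbsn, with means of 770 and 336 CPM in untreated CD34- cells. Krt1, Krt10 and Ivl had means of 1.65, 14.2 and 31.4 CPM there. The part of these 9 markers in the ligand differences was not tested. In such bulk samples, fewer cells of a type and less RNA per cell cannot be told apart.

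EGFR, the receptor of these ligands, showed a small difference in the opposite direction. Egfr stood at 11.3, 13.3, 11.4 and 11.8 CPM in untreated CD34- cells and at 12.7, 12.6, 12.6 and 15.2 CPM in untreated CD34+ cells. With N1-AcSpd it stood at 10.4, 11.2, 9.92 and 11.6 CPM in CD34- cells and at 12.6, 12.8, 13.2 and 13.5 CPM in CD34+ cells. The fractions overlapped in untreated cells through mouse 2, and were apart with N1-AcSpd. The log2 fold change of 0.27 with N1-AcSpd passed the test (SE 0.0729, adjusted p = 0.0106), and that of 0.15 in untreated cells did not (SE 0.073, adjusted p = 0.139). The difference between these conditions was 0.12 on the log2 scale (SE 0.103, adjusted p = 1). Without all libraries of mouse 3 the call with N1-AcSpd was lost (0.22, adjusted p = 0.0989), likewise without those of mouse 1 (0.27, adjusted p = 0.0608). With library totals Egfr was called in untreated cells too (0.27, adjusted p = 0.0197).

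ERBB3, a receptor with a weak kinase that signals through PI3K as a partner, was lower in CD34+ cells. Erbb3 stood at 6.96, 6, 7.44 and 8.52 CPM in untreated CD34- cells and at 5.74, 5.92, 5.53 and 6.63 CPM in untreated CD34+ cells. With N1-AcSpd it stood at 8.87, 8.62, 8.59 and 8.12 CPM in CD34- cells and at 6.5, 6.66, 6.56 and 6.4 CPM in CD34+ cells. The untreated fractions overlapped and the N1-AcSpd fractions did not. The log2 fold change was -0.28 (SE 0.0864, adjusted p = 0.0226) in untreated and -0.39 (SE 0.0858, adjusted p = 0.0029) in N1-AcSpd cells. Under a log2 fold change limit of 0.5, which is not among the 28 alternative settings counted here, Erbb3 was not called in either condition. The call with N1-AcSpd was kept in all 28 alternative settings, and the untreated call in 18. It was lost with library totals (-0.16, adjusted p = 0.177), after thinning to the smallest library (-0.26, adjusted p = 0.0679), with the compared groups alone (-0.28, adjusted p = 0.103), without all libraries of mouse 1, 3 or 4 (adjusted p = 0.107, 0.174 and 0.051), and without the single untreated libraries CD34+ of mouse 1, CD34- of mouse 3, CD34+ of mouse 3 or CD34- of mouse 4 (adjusted p = 0.057, 0.0567, 0.0516 and 0.0903).

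ERBB2, the partner receptor without a ligand, was not called. Erbb2 lay at 9.6 to 13.2 CPM over the untreated and at 9.47 to 13.4 CPM over the N1-AcSpd libraries, with overlapping fractions. Its log2 fold change was -0.10 (95% interval -0.33 to 0.12) in untreated and -0.18 (95% interval -0.41 to 0.047) in N1-AcSpd cells. With library totals the untreated value was 0.0088, on the other side of 0. The Erbb2 gene (chr11:98412470-98437716, plus strand) meets Mien1 (98437708 to 98438991, minus strand) tail to tail, and their last exons overlap by a few bases. Mien1 had a mean of 1535.7 UMIs per library against 235.1 for Erbb2, and was lower in CD34+ cells by log2 -0.34 (adjusted p = 0.00524) in untreated and -0.45 (adjusted p = 0.000646) in N1-AcSpd cells. How strand was handled in counting is not given in the sources used here, so that tags of the shared end cannot be told apart, and the Erbb2 values are uncertain to that extent.

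Across the members, the ranges of the fractions were apart for 4 of 9 in untreated cells, beside 32.2% of all tested genes, and for 7 of 9 with N1-AcSpd, beside 34.4%.

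With N1-AcSpd itself no member differed by a value that passed the test in the unpaired fit. In CD34- cells 0 of 9 were called, where 0.614% of all tested genes were called, and 2 members were under an unadjusted p of 0.05. In CD34+ cells 0 of 9 were called, where 0.325% of all tested genes were called, and 1 member was under an unadjusted p of 0.05. For the difference of the treatment effect between the fractions 0 of 9 were called, where 0% of all tested genes were called (799 genes were under an unadjusted p of 0.05, and DESeq2 called 72).

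Areg had the largest treatment value of the members in CD34- cells, and in CD34+ cells the largest after Btc, which had at most 10 UMIs per library there. It went from 13.7 ± 1.71 to 18.7 ± 2.06 CPM (SD, n = 4) in CD34- cells and from 5.84 ± 1.45 to 7.52 ± 1.28 CPM in CD34+ cells. Within each mouse Areg was 1.26 to 1.48 times its untreated level in CD34- cells, where the treated and untreated ranges did not overlap, and 1.15 to 1.42 times in CD34+ cells, where they did. It was therefore higher with N1-AcSpd in 8 of 8 pairs, as were 5.03% of all tested genes (958). The log2 fold change was 0.45 (SE 0.165, adjusted p = 0.248) in CD34- cells and 0.37 (SE 0.169, adjusted p = 0.376) in CD34+ cells, and neither passed the test. With the mouse as a replicate block, a paired fit, the CD34- value of 0.45 had an adjusted p of 0.0303 and was the 1 member called. The same paired fit called 349 genes in CD34- cells in place of 117, and 152 in CD34+ cells in place of 62.

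Apart from Btc, the other members had smaller treatment values than Areg. Erbb3 was at 0.24 on the log2 scale in CD34- cells (SE 0.0854, adjusted p = 0.228) and at 0.13 in CD34+ cells (SE 0.0867, adjusted p = 0.601). Epgn was at 0.17 (SE 0.0995, adjusted p = 0.485) and 0.058 (SE 0.101, adjusted p = 0.913), and Egfr at -0.15 (SE 0.0729, adjusted p = 0.405) and -0.027 (SE 0.073, adjusted p = 0.956). In CD34- cells Egfr was lower and Epgn, like Areg, higher in the treated library of all 4 mice, where 12.1% of all tested genes were lower and 13.2% higher in 4 of 4. In CD34+ cells Tgfa was lower in 4 of 4 mice (at 0.94 to 0.97 of the untreated level), as were 11.5% of all tested genes. Hbegf, Tgfa and Erbb2 lay between -0.20 and 0.017 in both fractions. Ereg and Btc, with up to 20 UMIs per library, had treatment intervals too wide to read: those of Ereg ran from -1.15 to 1.13 in CD34- cells, and Btc was at 0.37 (95% interval -0.14 to 0.88) in CD34- and 0.44 (95% interval -0.084 to 0.97) in CD34+ cells. The values of the interaction for the 9 members lay between -0.22 and 0.12, each with an adjusted p of 1.

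The genes that act around the receptors were taken from 5 lists: other ligands and receptors, ligand release, signal relay, receptor restraint and feedback on ERK. Of 59 listed genes 53 were tested. In untreated cells 13 were called higher and 10 lower in CD34+ cells (median log2 fold change 0.043), and with N1-AcSpd 11 higher and 10 lower (median 0.053). These are 43.4% and 39.6% of the 53, beside 32.1% and 33.3% of all tested genes. The 6 that were not tested (Erbb4, Nrg2, Nrg3, Gab2, Spry4 and Dusp4) had a mean of at most 3.6 UMIs per library. Erbb4, the receptor for neuregulins, Hbegf, Btc and Ereg, thus had few tags, with at most 35 in any library.

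Neuregulin 1, a ligand of ERBB3 and ERBB4, was the called gene among the other ligands and receptors (1 of 3 tested). Nrg1 stood at 19.7, 20.2, 19.2 and 20.2 CPM in untreated CD34- cells and at 10.7, 10.1, 12.6 and 11.1 CPM in untreated CD34+ cells. In CD34+ cells it was lower, at -0.83 on the log2 scale (SE 0.071, adjusted p = 1.57e-06) and at -0.93 with N1-AcSpd (SE 0.0709, adjusted p = 6.11e-07), without overlap in either condition. With N1-AcSpd it rose to 22.6, 26.7, 26.4 and 26 CPM in CD34- cells, or by 0.36 on the log2 scale (SE 0.0702, adjusted p = 0.0413), higher in 4 of 4 mice and above every untreated library. This was the 1 of the 53 genes called for treatment in either fraction, where 0.614% and 0.325% of all tested genes were called. The paired fit called Akt1, a kinase of the PI3K pathway, as well, at -0.23 in CD34- cells (adjusted p = 0.0194, chosen after its value was seen). The Nrg1 call was kept in 12 of 28 alternative settings, with an adjusted p between 0.00025 and 0.222, and leaving out any of the 4 mice ended it. In CD34+ cells Nrg1 was at 0.26 (SE 0.0709, adjusted p = 0.159), and was called without the untreated CD34+ library of mouse 3 (0.34, adjusted p = 0.0473). Nrg4 did not pass the test in any comparison, and Egf itself had at most 14 UMIs per library.

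Of the 10 ligand release genes, 2 were called higher and 1 lower in untreated CD34+ cells, or 30% of the list, about the 32.1% of all tested genes. Adam17, the main ligand-cutting protease, was higher by 0.23 (SE 0.0537, adjusted p = 0.00449) and Rhbdf1 by 0.24 (SE 0.0844, adjusted p = 0.0428). Rhbdf2 was lower, at -0.39 (SE 0.113, adjusted p = 0.0165). Both Rhbdf genes encode inactive rhomboid proteins that bring ADAM17 to the cell surface. The calls of Rhbdf1 and Rhbdf2 in untreated cells were kept in 10 and 24 of 28 settings, and 1 of these 10 genes was called when mouse 2 was left out, or mouse 3 among the untreated CD34- libraries. On its opposite strand Adam17 overlaps Iah1, with a mean of 499.8 UMIs per library beside 414 for Adam17.

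Of 23 tested signal relay genes, 6 were called higher and 5 lower in untreated cells (47.8%, beside 32.1% of all tested genes), and 4 and 4 with N1-AcSpd (34.8%, beside 33.3%). Without all libraries of mouse 1 or of mouse 2, 7 and 6 genes were called in untreated cells in place of 11. Pik3r1, the regulatory subunit of PI3K, stood apart: it lay at 3.91, 5.49, 3.2 and 3.88 CPM in untreated CD34- cells and at 18.3, 14.4, 14.6 and 17.8 CPM in untreated CD34+ cells. Its log2 fold change was 1.99 (SE 0.161, adjusted p = 1.25e-06), and 2.13 with N1-AcSpd (SE 0.163, adjusted p = 6.47e-07). Mapk3 (ERK1) was higher by 0.46 (SE 0.105, adjusted p = 0.00423), while Map2k1 (MEK1) and Src were lower, each at -0.30 (adjusted p = 0.000904 and 0.0136). The Src call was lost with library totals (-0.18, adjusted p = 0.116) and without all libraries of mouse 1 (-0.21, adjusted p = 0.118), and the Mapk3 call without all libraries of mouse 2 (0.38, adjusted p = 0.0566). Map2k1 overlaps Uchl4 on the opposite strand, with a mean of 751.1 UMIs per library.

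Of the 11 genes on the receptor restraint list, 2 were called higher and 2 lower in untreated cells, and 1 and 3 with N1-AcSpd. This was 36.4% in each, near the 32.1% and 33.3% of all tested genes. Lrig3 was 2.09-fold higher (log2 1.06, SE 0.188, adjusted p = 0.000667) and Lrig1 1.48-fold higher (log2 0.56, SE 0.176, adjusted p = 0.0246), whereas Lrig2 was at -0.62 (SE 0.134, adjusted p = 0.00276). These LRIG proteins span the membrane, and LRIG1 binds EGF family receptors and lowers their amount. No such role is stated here for LRIG2 or LRIG3, so the Lrig3 difference is not read as more restraint. The Lrig1 call in untreated cells was kept in 20 of 28 settings. With N1-AcSpd Lrig1 was called in 0 of 28 settings, at 0.14 to 0.34 on the log2 scale, and its fractions overlapped. Lrig1 overlaps Slc25a26 and Lrig2 overlaps Gm38412, each on the opposite strand. Sh3kbp1 (CIN85), an adaptor of CBL in receptor uptake, was 3.15-fold lower, at 8.25, 9.9, 10.6 and 13.6 CPM in untreated CD34- cells and 3.36, 2.8, 3.85 and 3.44 CPM in untreated CD34+ cells (log2 -1.65, SE 0.144, adjusted p = 1.75e-06). Errfi1, an EGFR inhibitor induced by the receptor, was at 0.17 (SE 0.0869, adjusted p = 0.17).

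Of 6 tested genes of the feedback on ERK, 3 were called higher and 1 lower in untreated cells (66.7%, beside 32.1% of all tested genes), and 4 and 1 with N1-AcSpd (83.3%, beside 33.3%; without all libraries of mouse 1, 3 or 4, 3 genes were called with N1-AcSpd in place of 5). Dusp6 and Dusp5, both phosphatases of ERK, moved in opposite directions. Dusp6 stood at 9.5, 11.6, 9.05 and 10.1 CPM in untreated CD34- cells and at 26, 28.2, 21 and 28.7 CPM in untreated CD34+ cells, which gives 1.37 on the log2 scale (SE 0.121, adjusted p = 1.98e-06). Dusp5 stood at 3.96, 5.24, 5.58 and 5.32 CPM in untreated CD34- cells and at 1.76, 1.59, 1.95 and 1.13 CPM in untreated CD34+ cells, which gives -1.64 (SE 0.234, adjusted p = 0.000123). Neither pair of ranges overlapped, and both directions were the same with N1-AcSpd. Spred1, an inhibitor of the RAS-ERK cascade, was higher by 0.58 (SE 0.127, adjusted p = 0.00298).

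**Figure D5:**
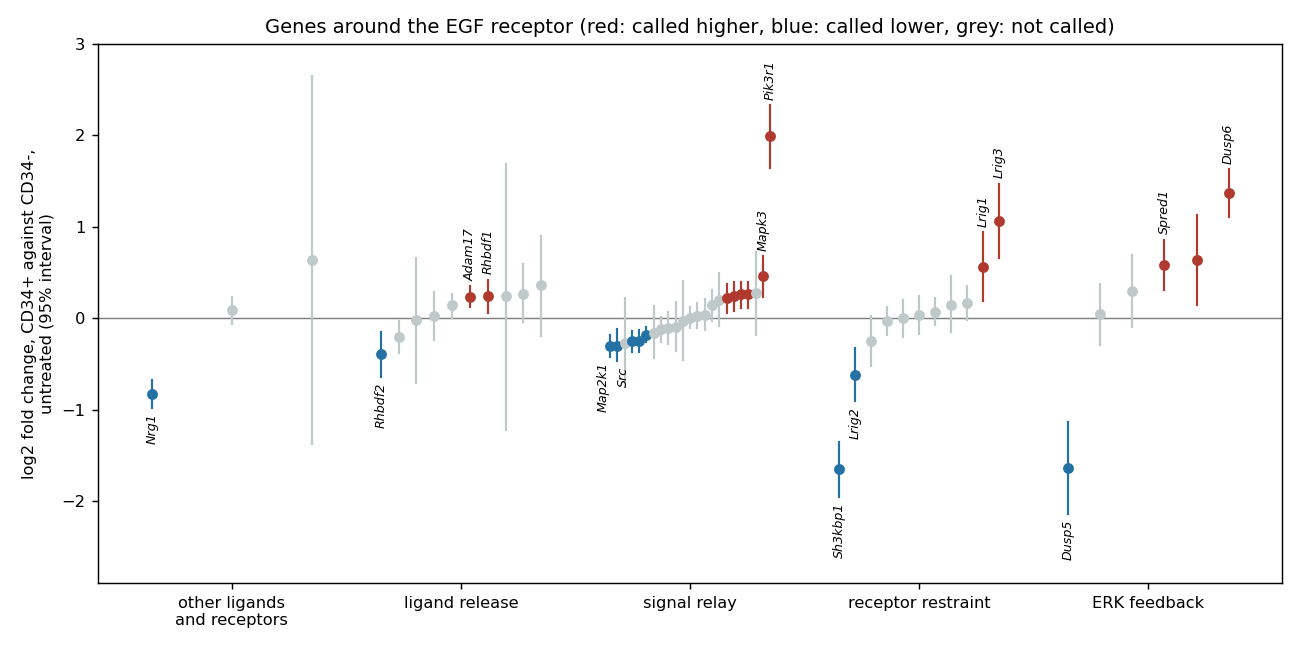
Log2 fold change of CD34+ against CD34- untreated cells, with 95% intervals, for the 53 tested genes of the 5 lists, ordered within each list. Red genes were called higher and blue genes lower, with Pik3r1 at 1.99 and Dusp6 at 1.37 at the top, and Sh3kbp1 at -1.65 and Dusp5 at -1.64 at the bottom.

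The gene whose profile over the 16 libraries lay nearest to each member was found by the root mean square difference of centred log2(CPM + 0.5) values, among 9213 or 9214 protein-coding genes with a mean of at least 50 UMIs. For Epgn it was Cers3, a ceramide synthase of the epidermal barrier, at 0.125, where the profile of Epgn itself had a root mean square of 0.74. For Hbegf it was Tctex1d4 at 0.158 (own profile 0.609) and for Areg Tmem125 at 0.194 (own profile 0.675). Tgfa lay nearest to Wnk1 (0.0766), Egfr to Trappc12 (0.0752), Erbb2 to Erlin2 (0.0833) and Erbb3 to Frrs1 (0.0863), with own profiles of 0.142 to 0.272. Ereg and Btc lay nearest to Acmsd (0.203) and Golga7 (0.0974), which for these counts says little.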

How the data were processed

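RNA of 16 libraries (4 sorted groups, 4 mice) was read as 3' tags with UMIs. The authors demultiplexed the reads, pseudoaligned them to mm10 with kallisto (0.45.0 per the submitters' processing notes), assigned tags with bedtools and deposited whole-number counts of unique UMI tags per gene. The annotation release and strand handling are not given in the sources used here. The 156050 empty cells were read as 0, and GENCODE M21 (GRCm38) gave symbols and positions. Of the identifiers, 94 were not in it (0.125% of counts).

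Counts were fitted with edgeR 4.0.16 in R 4.3.3 (glmQLFit and glmQLFTest) with TMM scaling, 1 mean per group over all 16 libraries, and a minimum of 5 on the mean count of a gene. Adjusted p-values are Benjamini-Hochberg values over all 19049 tested genes, and genes under 0.05 were called. The SE of a fold change was taken from its F statistic. The functions were tested on simulated data. Alternatives were other scalings and filters, DESeq2 1.42.0, a replicate block, libraries thinned to the smallest total, a fit of the compared groups alone, a log2 fold change limit of 0.5, and leaving out each library or mouse.

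The mouse number is shared by all groups through the labels' mouse entry, so the numbers pair the samples by animal. Deviations from the group means of 1 mouse correlated across genes at 0.024 on average (-0.088 to 0.12, 24 pairs of libraries), against -0.0079 for other mice. No 2 libraries of a group agreed within sampling noise (lowest chi-square per degree of freedom 25.4).

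The members and gene lists were chosen with earlier results of these data known. Named pathway genes were the 2 largest increases and the 2 largest decreases of each list among genes called in untreated cells, at 50 or more mean counts, plus genes called for treatment. Errfi1, Nrg4, Egf, Akt1, the markers and the genes that overlap others were named beside these. Intervals reflect the spread between mice as the fit estimated it. For low-count members such as Btc they can be narrower than counting error alone, so their widths are a minimum.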

Additional observations from a re-analysis of the deposited data

Results flagged for a closer look

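Each member was checked in each group of 4 libraries for a value far from the others, and 3 of 36 such sets had one, where chance gives about 1 in 20. Egfr was at 15.2 CPM in the untreated CD34+ library of mouse 4, with the other 3 libraries at 12.6 to 12.7 CPM. Hbegf was at 6.56 CPM in the N1-AcSpd CD34+ library of mouse 3, with the others at 4.23 to 4.57 CPM, and Ereg was at 0.245 CPM in the same library, with the others at 0.111 to 0.117 CPM. That Ereg value rests on 4 UMIs. No cause was tested.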

How the results depend on the processing

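The cell type calls of Areg, Hbegf, Tgfa and Epgn held in all 28 alternative fits in both conditions, with log2 ranges of -1.42 to -1.12, -1.47 to -0.95, -0.62 to -0.42 and -1.66 to -1.32. The number of members called was unchanged or within 1.5 times in 143 of 144 checks, and the replicate block moved it, from 0 to 1 (Areg, 0.45, adjusted p = 0.0303) for treatment in CD34- cells. The paired fit left no other member count outside that range. Egfr in N1-AcSpd cells and Erbb3 in untreated cells lost their calls in the fits named above, and Ereg was called in 3 of 26 fits in untreated and 6 of 26 in N1-AcSpd cells, all lower (-2.21 to -0.57 and -1.93 to -1.24). Of the 1080 member values under alternatives, 51 changed direction, none of them a called one. With library totals Btc was at 0.064 in N1-AcSpd and Erbb2 at 0.0088 in untreated cells. After thinning, Btc was at 0.024 in N1-AcSpd cells, and for treatment in CD34- cells Erbb2 was at -0.017 and Tgfa at 0.022. With DESeq2 the interaction of Tgfa was at 0.0042. The cause of these shifts was not tested. Leaving out libraries or mice, the cell type value of Btc with N1-AcSpd ran from -0.21 to 0.10 and that of Erbb2 in untreated cells from -0.18 to 0.016. The treatment value in CD34- cells ran from -0.13 to 0.073 for Erbb2, from -0.082 to 0.11 for Hbegf and from -0.13 to 0.05 for Tgfa. In CD34+ cells it ran from -0.053 to 0.062 for Egfr, from -0.054 to 0.14 for Epgn, from -0.18 to 0.013 for Erbb2 and from -0.12 to 0.0011 for Tgfa. The interaction ran from -0.17 to 0.049 for Areg, from -0.25 to 0.057 for Erbb2 and from -0.11 to 0.071 for Tgfa.

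Over all genes, treatment calls depended on the fit: 117 in CD34- and 62 in CD34+ cells became 558 and 423 with DESeq2, 349 and 152 with the replicate block, 68 and 37 after thinning, 35 and 35 without the low-count filter, 0 and 23 with the compared groups alone, 27 and 19 over a log2 fold change of 0.5, and 4 to 157 and 3 to 73 when a library or mouse was left out. The interaction, with 0 calls, had 0 to 11 in these last fits and 72 with DESeq2. The limit of 0.5 left 2913 and 3197 of the 6123 and 6346 cell type calls, and of the pathway genes 1 and 1 of the signal relay calls, 0 and 0 of the ligand release calls and 2 of 4 receptor restraint calls with N1-AcSpd. Among the members it left the cell type calls of Areg, Hbegf, Tgfa and Epgn in both conditions. It left no receptor call, since Erbb3 (-0.28 in untreated and -0.39 in N1-AcSpd cells) and Egfr (0.27 in N1-AcSpd cells) lie within it. Treatment values of Ereg and Btc, at 20 UMIs or fewer, are limited by depth.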
